A study of Mus musculus with 24 samples.

Results

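The genes described here are 9 mouse genes whose enzymes set the supply of deoxynucleotides, the building blocks of DNA. They were chosen by name from textbook knowledge of the pathway, but with earlier results of these data known. They are Rrm1, Rrm2, Rrm2b, Tyms, Dctd, Dut, Tk1, Dck and Samhd1, 9 of the 21671 genes listed in each RNA-Seq library. All 9 had an RPKM (reads scaled to the length of the gene and to all reads mapped to exons) above 1 in every one of the 24 libraries, so each could be tested in every comparison. The libraries come from the spleens of C57/Bl6 mice of 8 weeks of age that were either wild-type (Trp53+/+) or lacked p53 (Trp53-/-), and that were collected either without irradiation (mock, called control below) or 4 h after whole-body ionizing radiation (IR) at 7 Gy. Spleen cells were divided with magnetic beads against B220 into B cells and the remaining non-B cells, which are a mixture of cell types. This gave 8 groups, with 4 Trp53+/+ and 2 Trp53-/- libraries for each cell type and treatment. Genotype and irradiation both apply to the whole animal, so that a difference in B cells is not shown to arise within B cells.

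Ribonucleotide reductase turns ribonucleotides into deoxyribonucleotides and is built from the large subunit encoded by Rrm1 and a small subunit encoded by either Rrm2 or Rrm2b. Rrm2 is known for its use in S phase, while Rrm2b is a textbook p53 target that serves cells outside S phase. Around thymidylate, Dctd and Dut both deliver dUMP, from dCMP and from dUTP, and Tyms methylates it to dTMP. The kinases Tk1 and Dck recover thymidine and deoxycytidine from outside the cell, and Dck is known for its role in lymphocytes. Samhd1 works in the opposite direction and hydrolyses deoxynucleoside triphosphates.

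The labels were first checked against genes that should follow them. Trp53 lay between 43.4 and 49.5 RPKM in the 8 control Trp53+/+ libraries and between 21.6 and 25.0 RPKM in the 4 control Trp53-/- libraries, so the disrupted gene still gave reads in the latter, and values per gene do not separate the exons that are missing from those that remain. Cdkn1a, the classical p53 target, had between 0.893 and 1.36 RPKM in control Trp53+/+ B cells and between 82.3 and 97.8 RPKM after IR, but stayed at or below 0.726 RPKM in all Trp53-/- B cells. The summed RPKM of 8 B cell markers was 888 to 1119 in the B cell libraries and 217 to 615 in the non-B libraries, while that of 8 T cell markers was 39.2 to 76.7 and 301 to 670. Non-B cells therefore still held B cells. Among the 4 control Trp53+/+ non-B libraries, replicates 1 and 2 stood apart, with the erythroid transcription factor Klf1 at 56.0 and 52.8 RPKM against 8.24 and 19.2 RPKM in replicates 3 and 4, and with Mki67, a marker of dividing cells, at 99.9 and 101 RPKM against 36.8 and 45.9 RPKM. Estimated depth was 4.68 to 10.8 M reads and was lowest in irradiated Trp53+/+ B cells, at 4.68 to 7.54 M. The share of 1440 olfactory and vomeronasal receptor genes listed above 0 was 5.42% to 9.31% in control libraries but reached 47.3% in irradiated Trp53+/+ B cells and 51.3% in irradiated Trp53+/+ non-B cells, and was 13.1% in irradiated Trp53-/- B cell replicate 2, at a mean of at most 0.309 RPKM. Values without the libraries above 10% are given where they change a call.

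In Trp53+/+ B cells, IR moved the members in opposite directions. Rrm2, Tk1 and Dctd rose, while Rrm2b, Dck and Samhd1 fell, and these 6 of 9 passed the test (limma, with an adjusted p under 0.05 and a log2 fold change beyond 0.58 in either direction), where 24.7% of the 13821 genes tested did, 12.5% higher and 12.2% lower. For the same 6 members the control and irradiated libraries did not overlap, which held for 46.2% of all genes tested. Rrm1, Tyms and Dut did not pass. In Trp53-/- B cells 5 of 9 members passed, against 24.3% of all genes (13.1% higher and 11.2% lower), with Dctd and Dut higher and Rrm2b, Dck and Samhd1 lower. The groups of 2 did not overlap for 9 of 9 members there, as for 71.5% of all genes. The difference of the IR response between the genotypes passed its own test for Rrm2, Dck and Dctd, 3 of 9 members, against 18.8% of all genes (8.14% with a higher and 10.6% with a lower response in Trp53+/+ cells). In control B cells, the genotypes differed for 0 of 9 members at the adjusted threshold of limma, against 0.0506% of all genes (0.0217% higher and 0.0289% lower without p53), and 1 of 9, Rrm2, had an unadjusted p under 0.05.

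**Figure D1:**
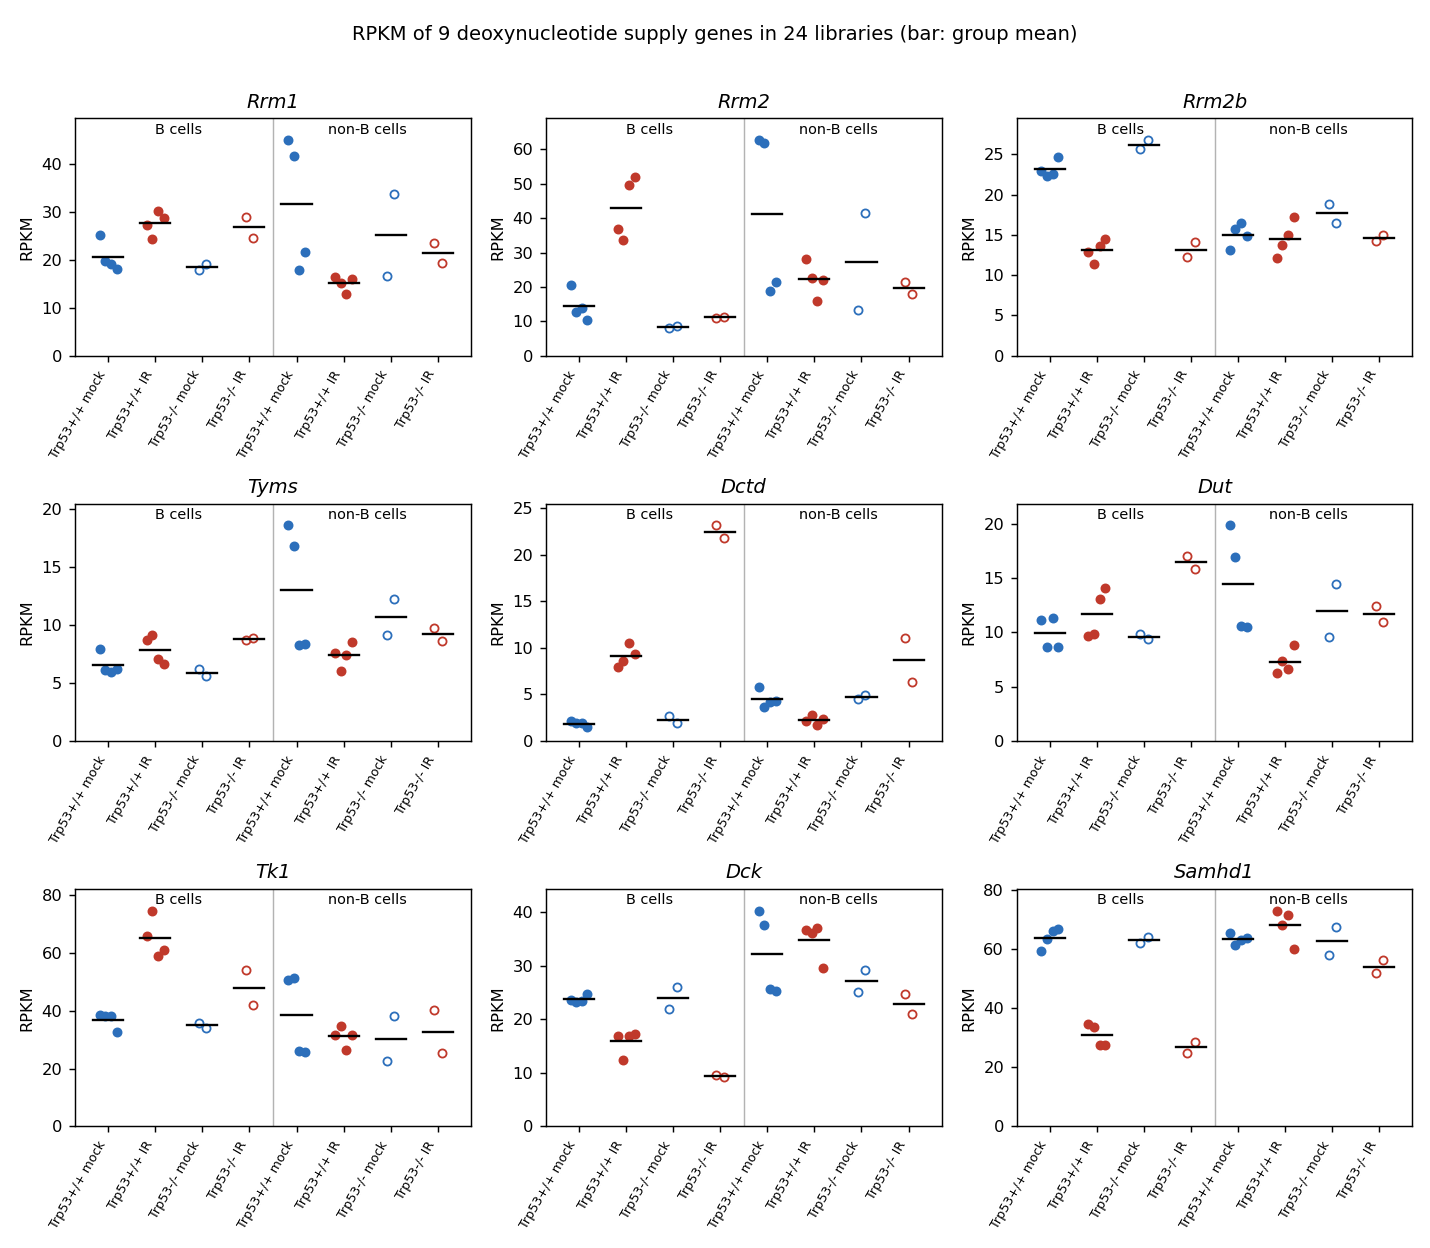
RPKM (vertical axis, linear and starting at 0) of each of the 9 genes in each of the 24 libraries, with the 4 B cell groups to the left of the grey line and the 4 non-B groups to the right. Blue points are control and red points irradiated libraries, filled points are Trp53+/+ and open points Trp53-/-, and black bars are group means. Samhd1 lies between 24.9 and 34.6 RPKM in all irradiated B cell libraries and at or above 51.7 RPKM in all others.

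Rrm2 (chr12:25393106-25399011 on the plus strand of NCBIM37, the assembly that mm9 represents) was the ribonucleotide reductase gene with the largest IR response in Trp53+/+ B cells. Control libraries held 20.6, 12.6, 13.9 and 10.5 RPKM and irradiated libraries 36.9, 33.6, 49.7 and 52.1 RPKM. Every irradiated library was above every control library. The fold change was 2.96 (log2 1.56, SE 0.18, limma adjusted p = 1.87e-05). Rrm2 went in Trp53-/- B cells from 8.06 and 8.63 RPKM to 10.9 and 11.4 RPKM. These groups did not overlap either, but the irradiated values lay within the range of the control Trp53+/+ libraries, and the change did not pass (log2 0.39, 95% confidence interval -0.17 to 0.96, limma adjusted p = 0.25). The response was larger in Trp53+/+ than in Trp53-/- cells by 1.17 on the log2 scale (SE 0.32, limma adjusted p = 0.024). That call was lost when control Trp53-/- replicate 1 or 2 or irradiated Trp53-/- replicate 1 was left out, with differences of 1.22, 1.12 and 1.14 and limma adjusted p of 0.070, 0.087 and 0.089. It was also lost without the libraries above 10% of receptor genes, which leaves 1 irradiated library of each genotype (1.43, SE 0.44, limma adjusted p = 0.067). Without p53, control B cells held 0.61 times the Rrm2 of Trp53+/+ controls (log2 -0.71, limma adjusted p = 0.78), the only member with an unadjusted p under 0.05 there.

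Rrm1 (chr7:109590209-109618285, plus strand), the large subunit that both small subunits share, moved less. Its 4 control Trp53+/+ B cell libraries held 25.2, 19.8, 19.0 and 18.2 RPKM and the irradiated ones 27.3, 24.3, 30.1 and 28.8 RPKM. Control replicate 1 overlapped the irradiated group. With Trp53+/+ replicates 3 and 4 alone Rrm1 was called higher (log2 0.65, limma adjusted p = 0.0013), and with replicates 1 and 2 alone it was not. With all libraries, the log2 fold change of 0.42 (SE 0.10) had a limma adjusted p of 0.0044 but missed the fold threshold. Rrm1 also stayed under that threshold in Trp53-/- B cells, going from 17.9 and 19.2 to 29.0 and 24.7 RPKM (log2 0.52, limma adjusted p = 0.013), but it passed without irradiated replicate 2, the library at 13.1% of receptor genes (log2 0.63, limma adjusted p = 0.015), and without all libraries above 10% (0.63, limma adjusted p = 0.022). With all libraries, the difference between the genotypes was -0.09 (95% confidence interval -0.48 to 0.30).

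Rrm2b (chr15:37853707-37891073, minus strand), in contrast with Rrm2, fell in both genotypes. Control Trp53+/+ B cells held 23.0, 22.3, 22.6 and 24.7 RPKM and irradiated ones 12.9, 11.4, 13.6 and 14.5 RPKM, with a wide gap between the groups. The log2 fold change was -0.80 (SE 0.08, limma adjusted p = 4.38e-06). Without p53 it went from 25.6 and 26.8 RPKM to 12.3 and 14.1 RPKM, a log2 fold change of -0.97 (SE 0.11, limma adjusted p = 3.40e-05). The responses of the genotypes differed by 0.17 on the log2 scale, with a 95% confidence interval of -0.13 to 0.47.

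The ratio of Rrm2b to Rrm2, both in RPKM and so comparable per length, describes the balance of the small-subunit transcripts without a test of its own. It was 1.11 to 2.35 in control and 0.273 to 0.349 in irradiated Trp53+/+ B cells, so that Rrm2b was the more abundant transcript in every control library and Rrm2 in every irradiated library. In Trp53-/- B cells it went from 3.10 and 3.18 to 1.24 and 1.13, and Rrm2b remained the more abundant transcript. The ratio in non-B cells ranged from 0.209 to 1.43 over all 12 libraries, with overlapping control and irradiated values in each genotype.

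**Figure D2:**
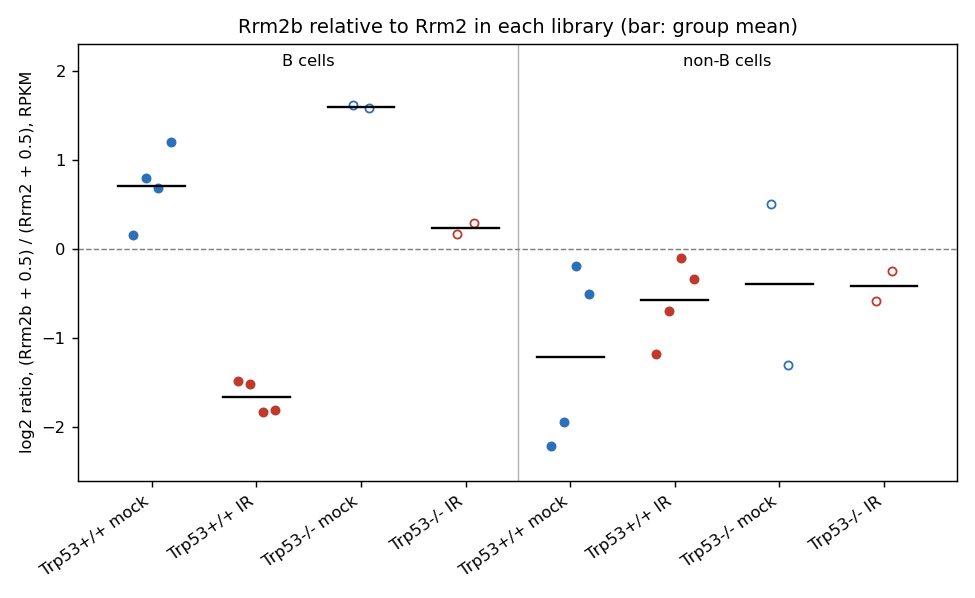
Log2 ratio of Rrm2b to Rrm2 (vertical axis, RPKM + 0.5 for both) in each library of the 8 groups, with Trp53+/+ filled, Trp53-/- open, control blue, IR red and group means as black bars. The dashed line marks equal levels, which irradiated Trp53+/+ B cells (mean -1.66, SD 0.19, n = 4) lie below and irradiated Trp53-/- B cells (mean 0.23, SD 0.09, n = 2) above.

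Dctd (chr8:49184446-49238587, plus strand), which encodes dCMP deaminase, had the largest change of the 9 members. Control Trp53+/+ B cells held 2.17, 1.90, 1.96 and 1.49 RPKM and irradiated ones 7.95, 8.56, 10.5 and 9.30 RPKM, a 4.03-fold increase (log2 2.01, SE 0.14, limma adjusted p = 1.80e-07). Without p53 the increase was larger. Trp53-/- B cells went from 2.66 and 1.90 RPKM to 23.2 and 21.8 RPKM, which is 8.36-fold on the same scale (log2 3.06, SE 0.19, limma adjusted p = 8.16e-07). Both irradiated Trp53-/- libraries were thus above the highest of the irradiated Trp53+/+ libraries. The difference between the responses was -1.05 (SE 0.24, limma adjusted p = 0.0098), and it was -0.85 (limma adjusted p = 0.063) when control Trp53-/- replicate 2 was left out and -0.88 (limma adjusted p = 0.12) without the libraries above 10% of receptor genes.

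The other members of the thymidylate route did not pass in Trp53+/+ B cells. Tyms (chr5:30384742-30400157, minus strand) had 7.97, 6.14, 5.90 and 6.18 RPKM in controls and 8.68, 9.11, 7.03 and 6.59 RPKM after IR, with overlapping groups (log2 0.24, 95% confidence interval -0.03 to 0.52). In Trp53-/- B cells it went from 6.16 and 5.57 to 8.74 and 8.87 RPKM (log2 0.55, limma adjusted p = 0.028), short of the fold threshold. A processed copy listed as Tyms-ps, at 0.729 to 3.49 RPKM over all libraries, may share reads with Tyms, so that its values are less certain than those of the other members. Dut (chr2:125072926-125084344, plus strand), which removes dUTP, had 11.1, 8.61, 11.3 and 8.65 RPKM in control and 9.70, 9.87, 13.1 and 14.043 RPKM in irradiated Trp53+/+ B cells, again overlapping. Dut rose in Trp53-/- B cells from 9.83 and 9.41 to 17.1 and 15.8 RPKM (log2 0.74, SE 0.19, limma adjusted p = 0.0076), and it missed the threshold without irradiated replicate 1 (log2 0.69, limma adjusted p = 0.052). The genotype difference was not significant for Tyms (-0.31, 95% confidence interval -0.79 to 0.17) or Dut (-0.53, -1.03 to -0.02, limma adjusted p = 0.14).

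The salvage kinases moved in opposite directions. Tk1 (chr11:117676840-117687406, minus strand), the cytosolic thymidine kinase, had 38.7, 38.3, 38.2 and 32.7 RPKM in control and 65.8, 74.6, 59.1 and 61.2 RPKM in irradiated Trp53+/+ B cells. The groups were well apart, and the increase was 1.75-fold (log2 0.81, SE 0.09, limma adjusted p = 1.57e-05). Trp53-/- B cells went from 35.7 and 34.1 to 54.0 and 42.1 RPKM, below the fold threshold (log2 0.44, limma adjusted p = 0.017), and the genotypes differed by 0.36 (95% confidence interval 0.01 to 0.71, limma adjusted p = 0.14). The change in Trp53-/- B cells ranged from 0.27 to 0.62 with 1 library left out. Tk1 went beyond the fold threshold there without irradiated replicate 2, which leaves 1 irradiated library (0.62). Without all libraries above 10% of receptor genes the change was likewise 0.62, and the genotype difference was 0.05.

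Dck (chr5:89194021-89212306, plus strand), deoxycytidine kinase, was lower after IR. Control Trp53+/+ B cells held 23.6, 23.2, 23.4 and 24.7 RPKM, and irradiated ones 16.8, 12.4, 16.9 and 17.2 RPKM. These groups did not overlap, but the log2 fold change of -0.58 (SE 0.10, limma adjusted p = 3.85e-04) was only just beyond the fold threshold and was -0.47 without irradiated replicate 2, -0.56 without control replicate 4 and -0.48 without the libraries above 10% of receptor genes. In Trp53-/- B cells Dck fell further, from 21.9 and 26.0 to 9.53 and 9.23 RPKM (log2 -1.30, SE 0.14, limma adjusted p = 2.04e-05). The response was less negative in Trp53+/+ than in Trp53-/- cells by 0.72 (SE 0.17, limma adjusted p = 0.013), or 0.60 (limma adjusted p = 0.080) without control Trp53-/- replicate 2.

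Samhd1 (chr2:156923265-156961001, minus strand) fell in B cells of both genotypes. Control Trp53+/+ B cells held 59.4, 63.3, 66.2 and 66.8 RPKM and irradiated ones 34.6, 33.6, 27.7 and 27.5 RPKM (log2 -1.05, SE 0.08, limma adjusted p = 7.03e-07). Trp53-/- B cells went from 62.0 and 64.0 to 24.9 and 28.6 RPKM (log2 -1.22, SE 0.12, limma adjusted p = 9.12e-06). Irradiated cells held 0.484 and 0.428 of the control level in Trp53+/+ and Trp53-/- cells, with no overlap in either genotype, and the genotype difference was 0.18 (95% confidence interval -0.14 to 0.49).

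**Figure D3:**
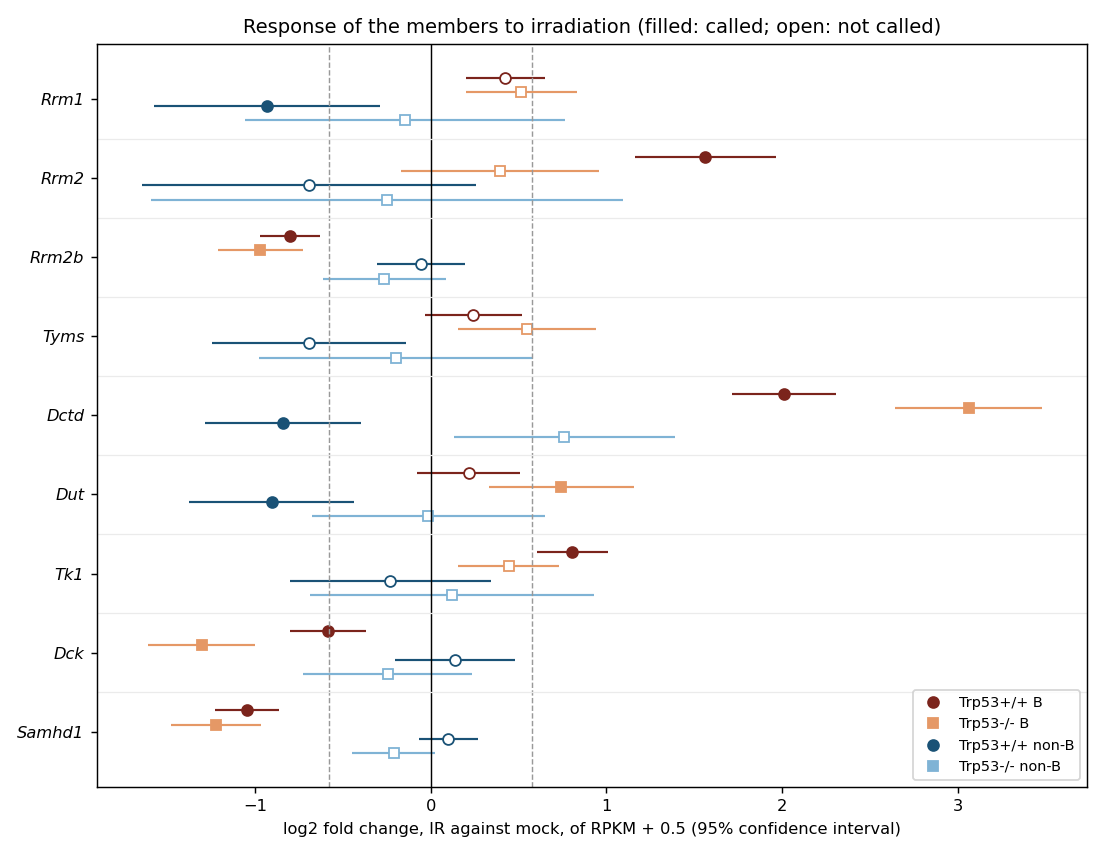
Log2 fold change after IR against control (horizontal axis, of RPKM + 0.5) for each of the 9 genes in the 4 combinations of genotype and cell type, with bars for the 95% confidence interval of limma. Filled symbols passed the test, open symbols did not, and dashed lines mark the fold threshold of 0.58. Rrm2b, Dck and Samhd1 lie to the left in both B cell groups, and Rrm2 separates Trp53+/+ (1.56) from Trp53-/- B cells (0.39).

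The promoters of the 3 members that rose together in Trp53+/+ B cells are shown to set their sequence beside the response. RefSeq promoter sequences of GRCm38.p6 were at hand for 8 of the 9 members, all but Rrm2b. The last 120 bases before the start are printed in the direction of the gene, with the CCAAT box (CCAAT or its reverse complement) in capitals. Rrm2 spans chr12:24708134-24708253 on the plus strand, Dctd chr8:48109893-48110012 on the plus strand before the last of its 3 starts, and Tk1 chr11:117826015-117826134 on the minus strand.
Rrm2: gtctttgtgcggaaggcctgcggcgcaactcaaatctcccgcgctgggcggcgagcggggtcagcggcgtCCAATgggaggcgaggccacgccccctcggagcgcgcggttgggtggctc
Dctd: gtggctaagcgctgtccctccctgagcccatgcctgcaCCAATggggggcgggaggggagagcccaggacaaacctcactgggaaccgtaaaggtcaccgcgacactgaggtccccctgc
Tk1: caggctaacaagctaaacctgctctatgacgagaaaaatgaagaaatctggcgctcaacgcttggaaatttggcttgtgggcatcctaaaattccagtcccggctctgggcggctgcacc
The CCAAT box began 50 bases before the start in Rrm2 and 82 bases before it in Dctd, and was not in the 250 bases before the start of Tk1. Of the 8 members, 3 (Rrm1, Rrm2 and Dctd) held it in those 250 bases, as did 33.9% of all 32851 promoters of that length. A member was counted if any of its starts had the box, whereas the 33.9% is per promoter. The first of the 3 starts of Dctd did not have it. The decamer of the p53 response element, searched with its usual consensus, was found in 1 member, Tyms, at 232 bases before the start, and in 7.13% of all promoters. The E-box CACGTG, searched as read on either strand, was likewise found in Tyms alone and in 6.02% of all promoters, and the E2F sites TTTGGCGC and TTTCGCGC, on both strands, in 0 of the 8 members and 0.65% of all promoters. These matches describe letters in a window and not binding.

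Markers of dividing cells did not rise with Rrm2 after IR in Trp53+/+ B cells. The summed RPKM of 14 proliferation genes was 206 to 336 in control and 193 to 223 in irradiated Trp53+/+ B cells. Of the 14, 7 were called lower and 0 higher, against 12.2% and 12.5% of all genes tested. Among the control libraries alone, the sum had the same order as Rrm2. It was 336, 255, 280 and 206 RPKM in replicates 1 to 4, where Rrm2 held 20.6, 12.6, 13.9 and 10.5 RPKM. Mki67 fell (log2 -0.82, SE 0.24, limma adjusted p = 0.012). The same sum in Trp53-/- B cells was 229 and 230 in controls and 320 and 370 after IR. Of the 14 genes, 4 were called higher and 0 lower there, against 13.1% and 11.2% of all genes tested. Erythroid markers also moved, from a summed 42.7 to 106 RPKM in control to 15.6 to 25.1 RPKM in irradiated Trp53+/+ B cells over 10 genes, of which at most 1 was listed at 0 in any library. Whether the makeup of the samples contributes to the members' changes was not tested, and in bulk RNA fewer cells of a type and less RNA per cell cannot be told apart.

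**Figure D4:**
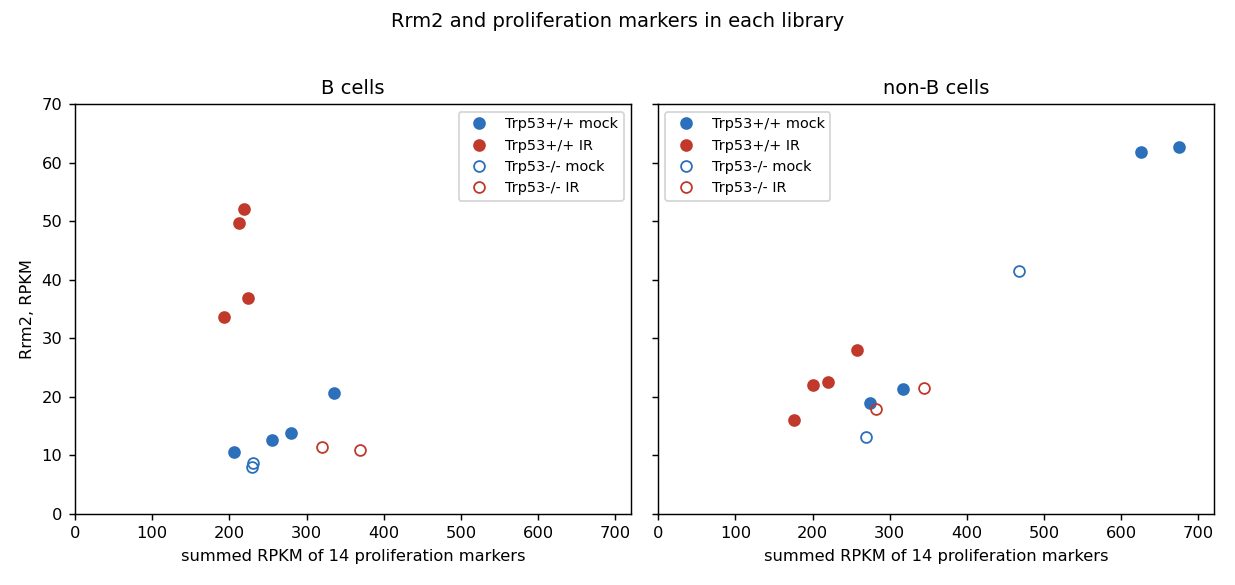
Rrm2 (vertical axis, RPKM) against the summed RPKM of 14 proliferation genes (horizontal axis) in each library, for B cells on the left and non-B cells on the right, with Trp53+/+ filled, Trp53-/- open, control blue and IR red. The 4 irradiated Trp53+/+ B cell libraries reach 33.6 to 52.1 RPKM of Rrm2 at sums of 193 to 223, and the control Trp53+/+ non-B libraries with high Rrm2 (62.7 and 61.8 RPKM) have sums of 674 and 625.

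In non-B cells the members responded otherwise. In Trp53+/+ non-B cells 3 of 9 members passed, Rrm1, Dctd and Dut, all lower after IR, where 9.85% of the 14018 genes tested passed, 5.74% higher and 4.11% lower. The same 3 members had control and irradiated libraries that did not overlap, as did 22.1% of all genes. In Trp53-/- non-B cells 0 of 9 members passed in limma's test, where 0.442% of all genes passed, and 1 of 9, Dctd, had an unadjusted p under 0.05. Control and irradiated libraries did not overlap for 4 members there (Dctd higher, Rrm2b, Dck and Samhd1 lower), against 48.8% of all genes.

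Dctd, higher after IR in B cells, was lower in Trp53+/+ non-B cells, and its response differed between the genotypes there. Control Trp53+/+ non-B cells held 5.86, 3.62, 4.198 and 4.26 RPKM and irradiated ones 2.10, 2.84, 1.75 and 2.41 RPKM (log2 -0.84, SE 0.20, limma adjusted p = 0.017). Trp53-/- non-B cells went from 4.49 and 4.99 to 11.026 and 6.33 RPKM, higher in both libraries but without passing (log2 0.76, 95% confidence interval 0.13 to 1.39, limma adjusted p = 0.22). The difference between these responses was -1.60 (SE 0.35, limma adjusted p = 0.022), the only one of the 9 that passed among non-B cells, where 7.35% of all genes did (3.98% higher and 3.37% lower). It kept its sign but was lost (limma adjusted p = 0.074, 0.071 and 0.11) when control Trp53-/- replicate 1, control Trp53-/- replicate 2 or irradiated Trp53-/- replicate 1 was left out, and without the libraries above 10% of receptor genes it was -1.32 (limma adjusted p = 0.15). Without irradiated Trp53+/+ replicate 3, the fall in Trp53+/+ cells was -0.75 (limma adjusted p = 0.055).

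Rrm1 and Dut were lower in irradiated Trp53+/+ non-B cells mainly against control replicates 1 and 2. Rrm1 had 45.0, 41.8, 17.8 and 21.7 RPKM in controls and 16.5, 15.2, 12.9 and 16.1 RPKM after IR (log2 -0.93, SE 0.29, limma adjusted p = 0.048). Dut had 19.9, 16.9, 10.6 and 10.5 RPKM in controls and 6.22, 7.41, 6.62 and 8.84 RPKM after IR (log2 -0.91, SE 0.21, limma adjusted p = 0.015). Control replicates 1 and 2 were also the libraries with the most erythroid and proliferation RNA. With replicates 3 and 4 of the Trp53+/+ groups alone, the values were -0.44 for Rrm1 and -0.44 for Dut, with limma adjusted p of 0.38 and 0.23. With replicates 1 and 2 alone, they were -1.42 and -1.37. The call of Rrm1 was further lost in 8 of 12 fits that left out 1 library, with values between -1.16 and -0.72 over the 12. These were replicates 1 and 2 of control Trp53+/+, replicates 1 to 4 of irradiated Trp53+/+ and replicates 1 and 2 of irradiated Trp53-/- cells. Leaving out the libraries above 10% of receptor genes leaves a lone irradiated Trp53+/+ library that is assumed to vary like the others. The values were then -0.92 for Rrm1, -0.56 for Dctd and -0.87 for Dut, and all 3 members lost their calls. The share of all genes that lost theirs is not given, so the loss is not shown to be particular to the members.

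Rrm2, Tyms and Tk1 had the same split among controls. Rrm2 held 62.7, 61.8, 18.9 and 21.4 RPKM in control and 28.1, 22.6, 16.041 and 21.9 RPKM in irradiated Trp53+/+ non-B cells, so that the groups overlapped (log2 -0.69, 95% confidence interval -1.64 to 0.26). Tyms held 18.6, 16.8, 8.27 and 8.36 RPKM in control and 6.05 to 8.54 RPKM in irradiated cells (log2 -0.69, limma adjusted p = 0.076), and it passed without control replicate 3 (-0.87, limma adjusted p = 0.036) or 4 (-0.86, limma adjusted p = 0.042). Tk1 held 50.8, 51.4, 26.1 and 25.7 RPKM in control and 26.5 to 34.8 RPKM in irradiated cells (log2 -0.23, 95% confidence interval -0.80 to 0.34). For all 3, replicates 3 and 4 of the controls lay within or near the irradiated range.

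The members that fell in B cells of both genotypes showed no such fall in Trp53+/+ non-B cells. Samhd1 held 65.3, 61.3, 63.0 and 63.7 RPKM in control and 73.0, 68.2, 71.6 and 59.9 RPKM in irradiated cells (log2 0.10, 95% confidence interval -0.07 to 0.27). Rrm2b held 13.1 to 16.4 RPKM and 12.1 to 17.2 RPKM (log2 -0.05, -0.30 to 0.19). Dck held 40.3, 37.7, 25.6 and 25.2 RPKM in control and 36.7, 36.1, 37.0 and 29.5 RPKM in irradiated cells (log2 0.14, -0.20 to 0.48). In Trp53-/- non-B cells the 3 genes had log2 fold changes of -0.21, -0.26 and -0.24, each with a confidence interval that includes 0.

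The mixture in the non-B libraries moved as well. Over the 4 control and 4 irradiated Trp53+/+ non-B libraries, the summed RPKM of the 14 proliferation genes was 274 to 674 and 176 to 258 (9 of 14 called lower), and that of the 10 erythroid genes 123 to 445 and 23.7 to 99.6 (6 of 10 called lower). Of all genes tested in that comparison, 4.11% were called lower. T cell markers summed to 388 to 565 RPKM in control and 301 to 390 RPKM in irradiated libraries, myeloid markers to 605 to 874 RPKM and 701 to 1046 RPKM, and B cell markers to 320 to 513 RPKM and 217 to 450 RPKM. The part of these markers in the members' changes was not tested.

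The IR response differed between Trp53+/+ B and non-B cells for all 9 members, against 28.0% of the 14598 genes tested. Of all genes tested, 15.4% had a more positive and 12.6% a more negative response in B cells. The fit over both cell types took the B and non-B libraries as independent, although both fractions came from the same spleens. The response was more positive in B cells for Dctd (difference 2.85 on the log2 scale, SE 0.23, limma adjusted p = 1.48e-06), Rrm2 (2.26, SE 0.48, limma adjusted p = 0.0024), Rrm1 (1.35), Dut (1.12), Tk1 (1.04) and Tyms (0.93). It was more negative in B cells for Samhd1 (-1.15, SE 0.12, limma adjusted p = 7.43e-06), Rrm2b (-0.75, SE 0.15, limma adjusted p = 0.0014) and Dck (-0.72, SE 0.20, limma adjusted p = 0.014). Tyms passed by the narrowest margin (limma adjusted p = 0.037) and lost its call in 10 of 16 fits that left out 1 library, with values from 0.74 to 1.11 over the 16. These 10 were control replicates 2, 3 and 4 and irradiated replicates 1 and 2 of B cells, and control replicates 1 and 2 and irradiated replicates 1, 2 and 3 of non-B cells. With Trp53+/+ replicates 3 and 4 alone, the difference of Tyms was 0.22 (limma adjusted p = 0.44), while Rrm1 (1.08, limma adjusted p = 0.0065) and Dut (0.88, limma adjusted p = 0.033) still passed. Leaving out the libraries above 10% of receptor genes leaves 1 irradiated library of each cell type. The differences were then 2.78 for Dctd, -1.30 for Samhd1 and -0.63 for Rrm2b. They were 2.43 for Rrm2, 1.47 for Rrm1, 1.26 for Dut, 1.06 for Tyms, 0.74 for Tk1 and -0.67 for Dck, and these last members lost their calls. The share of all genes that lost theirs is not given, so the loss is not shown to be particular to the members.

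In control Trp53+/+ spleens the cell types differed for 4 of 9 members, against 24.6% of all genes (7.38% higher and 17.2% lower in B cells). Rrm2b was 1.53-fold higher in B than in non-B cells (log2 0.61, SE 0.10, limma adjusted p = 1.68e-04), with groups that did not overlap, but it fell short of the fold threshold without control B cell replicate 4 (0.58), without control non-B replicate 1 (0.55) and with median-ratio scaling (0.58). Rrm2 (log2 -1.31, SE 0.34, limma adjusted p = 0.0053), Tyms (-0.86, SE 0.22, limma adjusted p = 0.0058) and Dctd (-1.06, SE 0.17, limma adjusted p = 7.46e-05) were lower in B cells. Without control non-B replicate 3 or 4, Rrm1 (-0.74 and -0.65) and Dut (-0.61 in both) were also called lower. For Samhd1 and Tk1 the log2 differences were 0.01 (95% confidence interval -0.16 to 0.19) and 0.02 (-0.38 to 0.42). Between the genotypes, control non-B cells differed for 0 of 9 members in limma's test, against 0.0428% of all genes, and 0 had an unadjusted p under 0.05. The widest spread was that of Rrm2 in these controls, with 13.2 and 41.5 RPKM in the Trp53-/- libraries.

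Over the 24 libraries, each member had other genes that rose and fell with it. By Pearson correlation of log2(RPKM + 0.5) over 14688 genes, genes near to Rrm2 were Kif18b (r = 0.94), a mitotic kinesin, and Ubac1 (0.94). Nearest to Dctd were Tfap4 (0.97), which encodes a transcription factor that binds E-boxes, Pus1 (0.96), a pseudouridine synthase, and Cd3eap (0.95). Samhd1 went with Camk1d (0.98), Insr (0.98), the insulin receptor, and Abcg1 (0.98), a cholesterol transporter, and Rrm2b with Otud1 (0.95), Rabgap1l (0.94) and Pyhin1 (0.93). For Dut these were Pola1 (0.96), a subunit of DNA polymerase alpha, Cbx5 (0.94) and Mcm7 (0.93), and Mcm7 (0.94), part of the replicative helicase, was also among the nearest to Rrm1, with Alad (0.95), an enzyme of haem synthesis, and Wdr60 (0.92). Tyms was nearest to Htr2a (0.93), Prc1 (0.92) and Ska3 (0.91), Tk1 to Hn1l (0.90), Tubb4b (0.88) and Spdl1 (0.88), and Dck to Xpr1 (0.95), Tpd52 (0.95) and Scarb2 (0.94). These values describe libraries that share cell types and treatments.

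The wider nucleotide metabolism was followed over 58 other genes, with 56 tested in B cells and 57 among the non-B cells. In Trp53+/+ B cells 17 were called higher and 2 lower after IR (12.5% of all genes were called higher and 12.2% lower), and the median log2 fold change was 0.26, against 0.01 for all genes tested. The 4 with the largest change were Cad, which starts pyrimidine synthesis and went from 16.3 to 22.4 RPKM in controls to 96.6 to 102 RPKM after IR (log2 2.35), Mthfd1 of the folate cycle (1.75), Uck2, a uridine and cytidine kinase (1.73), and Aprt, which recovers adenine (1.61). In Trp53-/- B cells 31 were called higher and 2 lower (13.1% and 11.2% of all genes), with a median of 0.67 against 0.02 for all genes. The largest changes there were those of Uck2 (2.24), Slc29a2, a nucleoside transporter (2.23), Ctps, CTP synthase (1.90), and Mthfd2, a mitochondrial folate enzyme (1.88).

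By group, the genes called higher in Trp53+/+ B cells, beside 12.5% of all genes, were 4 of 7 of the thymidylate and folate cycle, 2 of 5 of pyrimidine synthesis, 3 of 12 of purine synthesis, 2 of 8 kinases, 3 of 8 of nucleoside breakdown and transport, 1 of 11 of pool cleansing and nucleotidases and 2 of 5 of mitochondrial salvage. In the same order they were 6, 4, 8, 4, 4, 3 and 2 in Trp53-/- B cells, beside 13.1% of all genes. The genes called lower were 1 of pyrimidine synthesis and 1 kinase in each genotype. In Trp53+/+ non-B cells 2 of the 57 were called higher and 7 lower (5.74% and 4.11% of all genes), with a median of -0.25 against -0.03 for all genes. Named by size, these were Dnph1, a nucleotide hydrolase (-1.14), Slc25a36, a mitochondrial pyrimidine nucleotide carrier (0.88), Ppat, which starts purine synthesis (-0.79), and Slc29a1, a nucleoside transporter (-0.78). Dnph1 held 11.8, 6.94, 3.70 and 3.105 RPKM in controls and 1.86 to 3.20 RPKM after IR. Slc29a1 held 39.3, 35.5, 20.4 and 27.5 RPKM and 14.2 to 22.8 RPKM. Both were highest in control replicates 1 and 2 and had overlapping groups, while Slc25a36 and Ppat did not overlap. In Trp53-/- non-B cells 1 of the 57 was called, against 0.442% of all genes, Shmt1 of the folate cycle (0.92, limma adjusted p = 0.0395). The IR response was more positive in B than in non-B cells for 33 of 57 and more negative for 3, beside 15.4% and 12.6% of all genes.

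**Figure D5:**
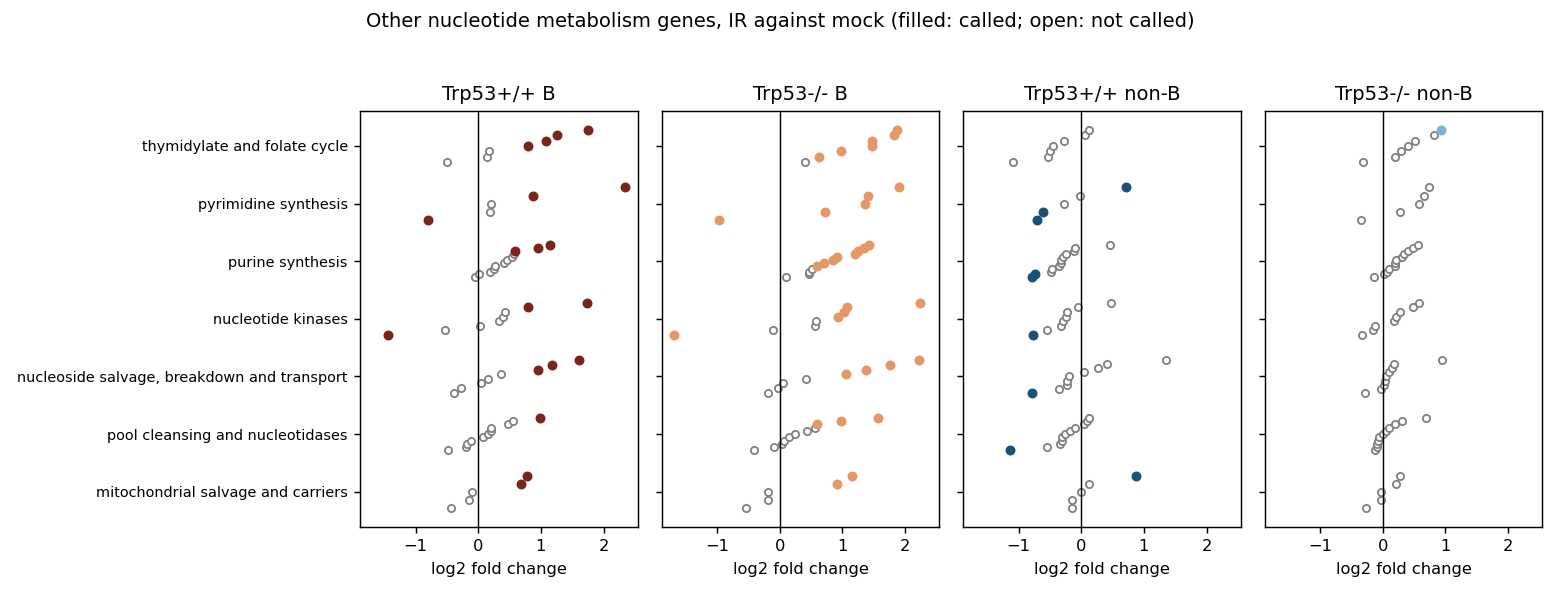
Log2 fold change after IR against control (horizontal axis, of RPKM + 0.5) of the other nucleotide metabolism genes tested, in 7 groups (vertical axis), for Trp53+/+ and Trp53-/- B cells and Trp53+/+ and Trp53-/- non-B cells from left to right. Each point is a gene, filled in colour where it passed the test and open where it did not, and filled points number 19, 33, 9 and 1 from left to right.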

How the data were processed

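The authors deposited RPKM values for 21671 genes, 1 file per library. As their methods describe, bases with a quality below 20 were masked, mm9 served as the genome for TopHat (TopHat2 2.0.8 in the submitters' processing notes), they kept 1 read of each duplicate set, counted reads per UCSC gene with featureCounts 1.4.5 and scaled to reads mapped to exons. Libraries came from ribosomal RNA-depleted total RNA, and the counting was not stated to use strand. The authors' own test used read counts, which were not used here, so log2(RPKM + 0.5) was tested with limma 3.58.1 in R 4.3.3 (mean-variance trend, Benjamini-Hochberg adjustment over all genes tested). Fold changes are on that scale, which understates the change of genes with low values.

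Each cell type was fitted with 4 group means over its 12 libraries, on genes whose RPKM exceeded 1 in any of its 8 Trp53+/+ libraries, and the comparison of cell types with the 16 Trp53+/+ libraries. A gene was called when its adjusted p was under 0.05 and its log2 fold change beyond 0.58 in either direction, and a difference between responses at the adjusted p alone. The study took 4 Trp53+/+ and 2 Trp53-/- mice per condition. The p-values measure the spread between these libraries. The fits were tested on simulated data, with 2-fold changes and a spread of 0.2 on the log2 scale. Of 200 changed genes, 99.0% were called after IR in Trp53+/+ B cells and 99.5% in Trp53+/+ non-B cells. Of the 100 changed in Trp53+/+ cells alone, 63% and 57% passed as a genotype difference. The simulated spread was independent for each gene and library, without a split of replicates such as that of control Trp53+/+ non-B libraries. The SD of Rrm2 among those libraries was 59.1% of its mean. Changed genes were drawn from an expression range above that of Dctd, with means of 1.88 and 4.48 RPKM in control Trp53+/+ B and non-B cells. The simulated rates are therefore not shown to hold for the members. Deviations from the group means were compared between control and irradiated Trp53+/+ libraries of the same number. They correlated in non-B cells (r = 0.33, 0.155, 0.22 and 0.33 for replicates 1 to 4) and hardly in B cells (r = 0.01 to 0.09). Correlations between libraries of different numbers are not given, so a pairing by number is not shown. B and non-B cells came from the same spleens, but the fit over both cell types took its libraries as independent. For Trp53+/+ B and non-B libraries of the same number, r was 0.351, 0.026, -0.049 and 0.218 in controls. After IR it was 0.149, -0.102, 0.041 and 0.287. Depth is an estimate, from the depth at which low RPKM values fall nearest to whole reads given exonic lengths (known for 91.9% of genes). Between 62.7% and 73.0% of these values came within 0.1 of a whole read, too few to recover counts. No interval for counting error was drawn from it.

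The members and all gene lists were chosen with earlier results of these data known. All 9 members are named in every comparison. Of the 58 other nucleotide genes, the 4 with the largest change among those called in each IR comparison are named, and for each member the 3 genes with the highest correlation, of which 1 is not reported here. Gene positions came from the GENCODE annotation of NCBIM37 and promoters from RefSeq. Values were summarised with Python 3.11.15, numpy 2.4.6 and pandas 2.3.3 and drawn with matplotlib 3.10.9. Alternatives were other pseudocounts, filters, scalings and thresholds, the receptor gene share as a covariate or as a limit, a replicate block, subsets of replicates and leaving out each library.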

Additional observations from a re-analysis of the deposited data

Results flagged for a closer look

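Of 36 groups of 4 Trp53+/+ libraries (9 members in 4 groups), 4 held a library far from the other 3 by Dixon's test at 95%, which chance alone gives for about 1 in 20 groups. They were Tyms at 7.97 RPKM in control B cell replicate 1, Tk1 at 32.7 RPKM in control B cell replicate 4, Dck at 12.4 RPKM in irradiated B cell replicate 2 and Dck at 29.5 RPKM in irradiated non-B cell replicate 4. Of 27 tests of a difference between responses, 13 passed in limma. Of all genes tested, 18.8% passed between the genotypes of B cells, 7.35% between those of non-B cells and 28.0% between the cell types. Between Trp53+/+ and Trp53-/- B cells the differences, on the log2 scale, were 1.17 for Rrm2, 0.72 for Dck and -1.05 for Dctd, and between the genotypes of non-B cells -1.60 for Dctd. Between Trp53+/+ B and non-B cells they were 1.35 for Rrm1, 2.26 for Rrm2, -0.75 for Rrm2b, 0.93 for Tyms, 1.04 for Tk1, -0.72 for Dck, 2.85 for Dctd, 1.12 for Dut and -1.15 for Samhd1.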

How the results depend on the processing

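Most member values were not called in the main fits, and a value that stayed uncalled is counted here as unchanged. Over 16 alternatives other than leaving out a library, 1139 of 1206 member values were unchanged. Of the rest, 54 lost a call, 13 gained a call and 0 called values reversed. With 1 library left out, 1112 of 1152 were unchanged, 32 lost a call, 8 gained a call and 0 reversed. The counts of members called changed as follows, and the cause was not tested. Shares of all genes called under each alternative are not given here, so a change is not shown to be particular to the members. A log2 fold threshold of 1 gave 3 rather than 6 in irradiated Trp53+/+ B cells, 3 rather than 5 in Trp53-/- B cells, 0 rather than 3 in Trp53+/+ non-B cells and 2 rather than 4 between control B and non-B cells, and no fold threshold gave 8 in Trp53-/- B cells. An adjusted p under 0.01 gave 1 rather than 3 for the genotype difference in B cells, 0 in Trp53+/+ non-B cells and 0 rather than 1 for the genotype difference in non-B cells. Without the libraries above 10% of receptor genes, 1 genotype difference passed in B cells, 0 passed in non-B cells, and Trp53+/+ non-B cells had 0 and the cell type difference 3 rather than 9. The receptor share as a covariate gave 0 in Trp53+/+ non-B cells and 0 for their genotype difference. Trp53+/+ replicates 3 and 4 alone gave 0 in non-B cells, and replicates 1 and 2 alone gave 7 between control B and non-B cells. Leaving out 1 library gave 0 to 3 for the genotype difference in B cells (0 without control Trp53-/- replicate 2), 1 to 4 in Trp53+/+ non-B cells (1 without irradiated replicate 3), 3 to 6 between control B and non-B cells (6 without control non-B replicate 3 or 4) and 0 to 1 for the genotype difference in non-B cells (0 without control Trp53-/- replicate 1 or 2 or irradiated Trp53-/- replicate 1). The mean log2 ratio of Rrm2b to Rrm2 in control Trp53-/- non-B cells, -0.40, rests on 2 unlike libraries, and was -1.30 without replicate 1 and 0.50 without replicate 2. The replicate block, as a pairing by number, changed 0 of 90 member values from called to uncalled or the reverse. With it Rrm1, Dctd and Dut had limma adjusted p of 0.032, 0.024 and 0.021 in Trp53+/+ non-B cells. Median-ratio scaling took away the calls of Dck in Trp53+/+ B cells (-0.56) and of Rrm1 in Trp53+/+ non-B cells (-0.88, limma adjusted p = 0.062). An alternative chosen after seeing the data added to that scaling a correction for the limit that keeping 1 read per duplicate set puts on high values. The largest RPKM of a library reached 71.9% to 94.9% of 2 kept reads per base, the members at most 35.3% (Samhd1), and with both changes Dck (-0.57) and Rrm1 (-0.94, limma adjusted p = 0.063) were likewise not called. With 2 Trp53-/- libraries per group and estimated depths of 4.68 to 10.8 M reads, a change that did not pass is not shown to be absent.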

Other observations

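Among the 56 other nucleotide metabolism genes tested in B cells, the difference of the IR response between the genotypes passed in limma for 21, with 16 responses lower and 5 higher in Trp53+/+ than in Trp53-/- cells. The genes named here were chosen after their values were seen. Of purine synthesis, 5 of 12 genes responded less in Trp53+/+ cells, with the largest difference for Ppat (-1.16, SE 0.15), and of the thymidylate and folate cycle 3 of 7, with the largest for Mthfd2 (-1.74, SE 0.22), which rose in Trp53-/- B cells (1.88) and had a log2 fold change of 0.14 in Trp53+/+ B cells. The 5 with a higher response in Trp53+/+ cells were Slc25a36 (0.96), Cad (0.94), Aprt (0.56), Prps2 (0.48) and Nt5c (0.40). Of all genes tested, 10.6% had a lower and 8.14% a higher response in Trp53+/+ cells.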
